A study of Rattus norvegicus with 4 samples.

Results

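The insulin-like growth factor (IGF) genes were examined in 2 control libraries and 2 Sox10-deficient libraries of OLN93 cells, a spontaneously immortalized rat line of the oligodendroglial lineage. The group comprises 10 of the 17327 gene symbols in the count files, chosen by name. These are the ligands Igf1 and Igf2, the receptor Igf1r, the adaptors Irs1 and Irs2, and the binding protein genes Igfbp2, Igfbp3, Igfbp4, Igfbp5 and Igfbp7. Sox10 had been inactivated by CRISPR/Cas9 in the deficient cells, and clones A and B carry edits made with different guide RNAs, so that each deficient library stands for a single clone. The controls, Sox10-positive OLN93 cells, are labelled as biological replicates and described as clones in the methods of the study. All cells were grown in medium with fetal calf serum. With 2 libraries a group, p-values measure the spread between these cultures only, and an exact permutation test cannot go below p = 0.333.

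Igf1 and Igf2 are secreted ligands that bind Igf1r, a receptor tyrosine kinase. The active receptor phosphorylates Irs1 and Irs2, which dock PI3-kinase and lead to Akt and mTOR. The Igfbp proteins bind the ligands outside the cell and hold them back from or deliver them to the receptor, whereas Igfbp7 is a more distant relative that binds them weakly. In the brain, Igf1 is known as a survival and maturation factor for oligodendroglial cells.

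Among the binding protein genes, 3 had counts, namely Igfbp4, Igfbp5 and Igfbp7. The 250 bases before their annotated starts are shown because these genes carry the values described for the binding proteins. Igfbp5 passed the adjusted call, Igfbp7 did not, and Igfbp4 had too few counts to be tested. The sequences come from RefSeq on assembly GRCr8, which is not the rn5 build of the counts, and run 5′ to 3′ on the strand of the gene. They span chr10:84491221-84491470 on the plus strand for Igfbp4, chr9:81914188-81914437 on the minus strand for Igfbp5 and chr14:31091486-31091735 on the plus strand for Igfbp7. Capitals mark the letters TATAAA.
Igfbp4: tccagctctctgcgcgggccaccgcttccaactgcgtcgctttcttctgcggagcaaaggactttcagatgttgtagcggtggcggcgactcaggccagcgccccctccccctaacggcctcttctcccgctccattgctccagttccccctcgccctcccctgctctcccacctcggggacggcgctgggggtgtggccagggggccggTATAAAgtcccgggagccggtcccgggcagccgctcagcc
Igfbp5: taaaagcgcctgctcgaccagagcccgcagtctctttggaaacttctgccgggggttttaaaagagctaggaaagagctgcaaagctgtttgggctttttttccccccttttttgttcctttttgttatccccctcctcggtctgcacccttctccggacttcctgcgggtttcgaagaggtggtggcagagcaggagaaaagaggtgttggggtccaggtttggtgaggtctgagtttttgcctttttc
Igfbp7: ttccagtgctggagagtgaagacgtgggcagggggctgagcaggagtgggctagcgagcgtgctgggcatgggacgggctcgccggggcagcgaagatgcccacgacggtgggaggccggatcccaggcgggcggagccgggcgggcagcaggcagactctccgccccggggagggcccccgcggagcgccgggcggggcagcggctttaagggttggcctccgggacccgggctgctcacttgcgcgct

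The windows of Igfbp4 and Igfbp7 had a GC content of 68.8% and 74.4% and that of Igfbp5 51.6%, beside a median of 51.2% over 33469 promoter windows. TATAAA on the gene strand stood 40 bases before the start of Igfbp4 and in 8.06% of all windows, and in neither of the windows of Igfbp5 and Igfbp7. Of the members, 9 of 10 had a promoter entry. The other motifs were searched on both strands. ACAAAG, a form of the core that Sox proteins bind, occurred in 16.3% of all windows and among the members for Igf1. The variant ACAATG occurred in 11.1% of all windows, and among the members for Igf1 and for 1 of the 2 starts of Igf2. The FoxO core GTAAACA occurred in 3.21% of all windows and for no member. These matches describe letters and no binding was measured.

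Library totals of the deposited counts ranged from 60951 to 104017, so that 3 counts, taken as the floor, stand for 29.1 to 48.0 normalized CPM, the counts divided by the TMM-scaled library size. Over 5399 genes whose deposited mean count is at least 500, the deposited count per library was 0.384% of that mean in the median. The sources used here do not say what sets the deposited counts so far below the deposited means, so that depth stands here for the depth of the deposited counts and not of the sequencing. The share differed between genes, for instance 0.113% for Igfbp5 and 2.51% for Polr2b, a gene treated below. Rps6, a ribosomal protein gene, had 0 counts in all 4 libraries. The floor and the intervals below cover counting error only. A count of 0 or an upper bound therefore describes the deposited counts and does not bound expression. Sox10 counts were 28 for control 1, 64 for control 2, 0 for clone A and 14 for clone B, so that the library labelled clone B still held reads of the targeted gene. The 12 oligodendroglial markers summed to 3070 and 2360 CPM (controls) and to 2110 and 1890 CPM (clones), with Mag at 0 in all libraries. Of the 7 with enough counts to be tested, 5 had a log2 fold change below 0 and 2 above 0. Of 8 Schwann cell and neural crest markers, 6 had counts, which summed to 1390 and 1260 CPM (controls) and to 290 and 113 CPM (clones), with Cdh19 at 0 in all libraries. Of 8 astrocyte markers, 4 had counts and summed to 448 and 271 CPM against 34.8 and 90.6, with Aqp4, Slc1a2, Slc1a3 and Aldh1l1 at 0 throughout. Of 8 fibroblast and pericyte markers, 3 had counts and summed to 400 and 427 CPM against 325 and 193, with Dcn and Lum at 0 throughout. The part of these markers in the results was not tested. Markers of microglia (2 of 8 with counts), neurons (3 of 8) and endothelial cells (2 of 8) summed to at most 136 CPM in any library. Fewer cells of a kind and less RNA per cell cannot be told apart in such bulk libraries. Differences between genes in level are not given, because no transcript lengths were used here.

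Of the 10 members, 3 passed the filter on low counts and were tested, namely Igf1r, Igfbp5 and Igfbp7, and 4 had counts too low for the test. The other 3, Igf2, Igfbp2 and Igfbp3, had 0 counts in all libraries. The call required a 2-fold difference or more and a Benjamini-Hochberg adjusted p, over all 2438 tested genes, of at most 0.05 in the quasi-likelihood test of edgeR. By this rule 1 of the tested members, Igfbp5, was higher in the Sox10-deficient clones, where 1.11% of all tested genes were. None was lower, where 2.50% of all tested genes were. With the unadjusted p, Igfbp5 was again the 1 member called higher (background 4.63%) and Igfbp7 the 1 called lower (background 6.97%). DESeq2 called none after adjustment. For Sox10, the targeted gene, edgeR gave a difference of -2.74 on the log2 scale (SE 0.62, edgeR adjusted p = 0.0172). DESeq2 gave it -2.74 as well but did not call it (DESeq2 unadjusted p = 0.217).

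**Figure D1:**
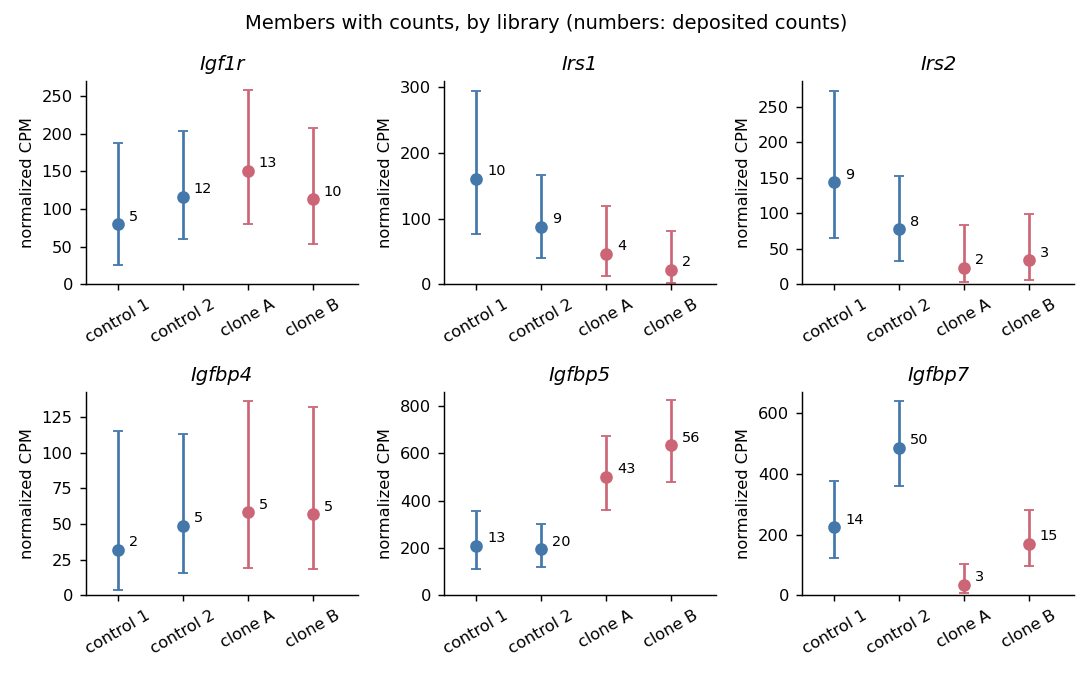
Normalized CPM of the 6 members with counts in more than 1 library, for controls 1 and 2 (blue) and Sox10-deficient clones A and B (red). Points are single libraries labelled with their deposited counts, and bars are exact 95% Poisson intervals of counting error. Igfbp5 lies at 499 and 634 CPM for the clones against 208 and 194 CPM for the controls, whereas Igfbp7, Irs1 and Irs2 lie lower in the clones than in the controls.

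The ligand genes were at or near 0 in the deposited counts, and their deposited mean counts are 61 for Igf1 and 20 for Igf2. Igf1 was at 0 in both controls and clone A and had 2 counts in clone B, which is 22.6 CPM there with an exact Poisson interval of 2.74 to 81.8. Igf2 had 0 counts in all 4 libraries, with two-sided exact Poisson upper bounds of 35.8 to 59.0 CPM, depending on the library. No difference in either ligand was detectable at this depth. Ins1 and Ins2, the insulin genes, also had 0 counts throughout.

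Igf1r (ENSRNOG00000014187), which binds both IGFs, had control counts of 5 and 12 and clone counts of 13 and 10. In CPM these were 79.9 and 116 against 151 and 113, and the groups overlapped. The difference was 0.38 on the log2 scale (SE 0.62, edgeR adjusted p = 0.873). The clones had 1.29 times the pooled control level, with an exact binomial interval of 0.657 to 2.56, so that a 2-fold increase was within the counting error. Igf2r, the receptor that takes up Igf2 and carries mannose 6-phosphate cargo, was the most counted gene of the ligand and receptor list. Its control counts were 51 and 65 and its clone counts 109 and 79. The difference was 0.59 on the log2 scale (SE 0.28, edgeR unadjusted p = 0.0506, adjusted p = 0.341), with no overlap between the groups.

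The adaptors Irs1 and Irs2 had lower counts in both clones than in both controls. Irs1 (ENSRNOG00000014597) had control counts of 10 and 9 and clone counts of 4 and 2. Its level was 160 and 87.2 CPM against 46.5 and 22.6, and the lower control exceeded the higher clone. Irs2 (ENSRNOG00000023509) had control counts of 9 and 8 and clone counts of 2 and 3, or 144 and 77.5 CPM against 23.2 and 34.0. Both genes were too low for the filter and have no value in the test as set. From pooled counts, Irs1 was 3.33-fold lower in the clones (exact binomial interval 1.28 to 10.2) and Irs2 3.58-fold lower (1.27 to 12.4). These intervals compare the pooled libraries and leave out the spread between cultures. Without the filter, edgeR gave Irs1 a difference of -1.72 on the log2 scale (unadjusted p = 0.0422, adjusted p = 0.662). It gave Irs2 one of -1.82 (unadjusted p = 0.0452, adjusted p = 0.685), so that neither passed the adjusted threshold. The paper names Irs2 among its candidate Sox10 targets of oligodendrocyte precursor cells. It chose these as at least 2-fold lower in the deficient cells by its own test, with Sox10 binding nearby. The values of that test were not used here. The ratio of clones to controls was between 0.198 and 0.405 for Irs1 and between 0.199 and 0.370 for Irs2 when each library was left out in turn. Its interval then reached above 1 for Irs1 without control 1 or clone B and for Irs2 without control 1 or clone A, and the lowest ratio of Irs1 came without clone A.

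Igfbp2 and Igfbp3, which encode 2 of the circulating IGF-binding proteins, had 0 counts in all 4 libraries. The deposited mean count is also 0 for Igfbp2 and 1 for Igfbp3. Igfbp2 and Igfbp5 are neighbouring genes in assembly GRCr8, and of the pair Igfbp5 alone had counts here. Igfbp4, which encodes a binding protein known to restrain IGF action, had control counts of 2 and 5 and a count of 5 in each clone. Its CPM were 32.0 and 48.5 against 58.1 and 56.6, and its pooled ratio of 1.36 had an interval of 0.466 to 4.20, so that no difference was detectable.

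Igfbp5 (ENSRNOG00000017206) was the 1 member called higher in the Sox10-deficient clones by edgeR. Its protein binds IGFs and also the extracellular matrix. Control counts were 13 and 20 and clone counts 43 and 56. These are 208 and 194 CPM against 499 and 634 CPM, and the exact Poisson intervals of the controls, with 355 CPM as their highest bound, lay below those of the clones, with 361 as their lowest. The mean was 201 ± 9.86 CPM for controls and 567 ± 95.3 CPM for clones (SD, n = 2 each), and the fitted change was 2.82-fold. The difference was 1.49 on the log2 scale (SE 0.35, edgeR adjusted p = 0.0229). The settings that lost the call included DESeq2 (adjusted p = 0.229), the fit without control 2 (adjusted p = 0.497) and that without clone B (adjusted p = 0.187), while the difference stayed between 1.31 and 1.67 on the log2 scale. The deposited counts of Igfbp5 were 0.113% of the deposited mean count of that gene, below the median of 0.384% given above.

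Igfbp7 (ENSRNOG00000002050), which encodes a secreted matrix protein of the wider family, went the other way but missed the adjusted threshold. Control counts were 14 and 50 and clone counts 3 and 15. In CPM the controls had 224 and 485 and the clones 34.8 and 170. The groups did not overlap, but the exact Poisson intervals of control 1 (122 to 375 CPM) and clone B (95.1 to 280 CPM) did. The means were 354 ± 184 and 102 ± 95.5 CPM (SD, n = 2 each). The difference was -1.82 on the log2 scale (SE 0.56, edgeR unadjusted p = 0.00426, adjusted p = 0.0856). Single libraries moved this value widely, to -1.14 without control 2, -1.10 without clone A, -2.24 without control 1 and -3.34 without clone B, and the adjusted p was 0.670, 0.549, 0.000362 and 0.00133 in that order. The adjusted p also passed the threshold with library totals in place of TMM normalization (0.0415) and without the filter (0.0229). From the highest to the lowest level, the libraries stood in the order control 2, control 1, clone B and clone A. Their order for Sox10 was the same. This order held for 123 tested genes, or 5.05%. All of these fall among the 522 tested genes that were lower in both clones without overlap, as Igfbp7 was. The match is a description only, and a link to Sox10 was not tested. The span of Igfbp7 overlaps Polr2b, a gene for an RNA polymerase II subunit, in assembly GRCr8. Polr2b had control counts of 36 and 165 and clone counts of 27 and 29, a difference of -1.80 on the log2 scale (SE 0.39, edgeR adjusted p = 0.0120). The counts of Polr2b were 2.51% of its deposited mean and those of Igfbp7 0.273%. The strand option of the counting is not given in the sources used here. Whether reads of either gene entered the counts of the other was not tested, so that the difference of Polr2b carries the same limit.

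**Figure D2:**
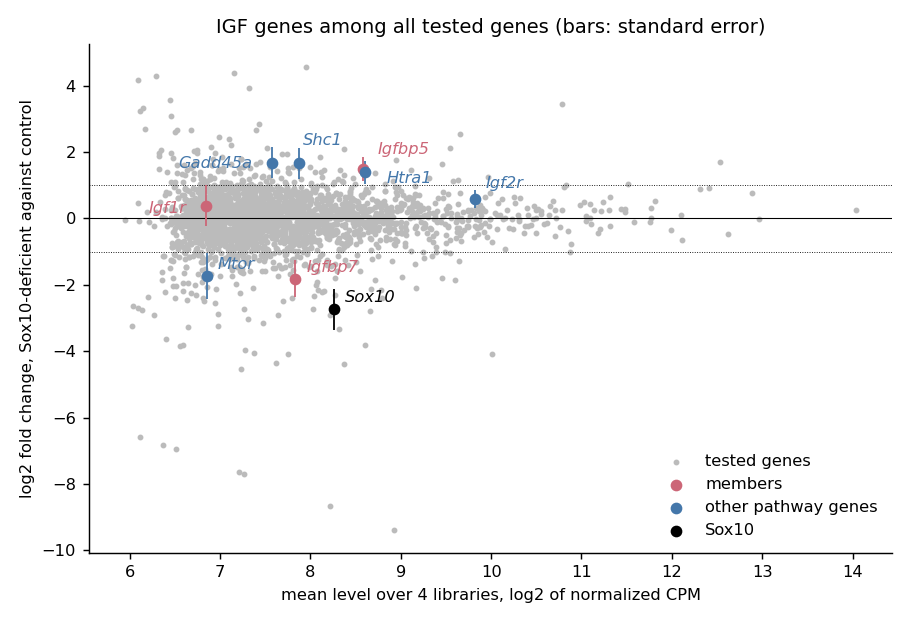
Log2 fold change of Sox10-deficient clones against controls (vertical axis) by mean level over the libraries as log2 normalized CPM (horizontal axis). Grey points are the 2438 tested genes, red points members, blue points other named pathway genes and the black point Sox10, with standard errors as bars and dotted lines at 2-fold. Igfbp5 stands at 1.49, Igf1r at 0.38 and Igfbp7 at -1.82.

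Igfbp5 and Igfbp7 can be compared within a library, where scaling has no part. The pair was set together with the values of both genes known, so that the direction of the share was fixed by the choice and is a description only. Igfbp7 had missed the adjusted threshold, and the overlap with Polr2b applies to its counts here too. Of the counts of both genes together, Igfbp5 made up 13 of 27 in control 1, or 48.1% (exact binomial interval 28.7 to 68.1). In control 2 it made up 20 of 70, or 28.6% (18.4 to 40.6). In clone A it made up 43 of 46, or 93.5% (82.1 to 98.6), and in clone B 56 of 71, or 78.9% (67.6 to 87.7). The intervals of control 1 and clone B overlapped. The level of the 10 members summed to 847 and 1010 CPM (controls) and to 813 and 1050 CPM (clones). The groups overlapped in this sum, while the CPM of Igfbp5 within it was higher and that of Igfbp7 lower in the clones.

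**Figure D3:**
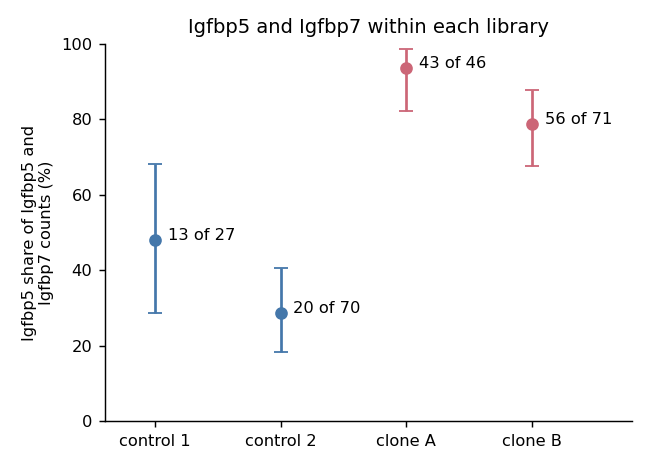
Share of Igfbp5 in the counts of Igfbp5 and Igfbp7 together, in percent, for controls 1 and 2 (blue) and clones A and B (red). Bars are exact 95% binomial intervals. Controls lie at 48.1% and 28.6%, clones at 93.5% and 78.9%.

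Clones and controls did not overlap for 1 tested member in each direction. Igfbp5 was higher, as 21.6% of all tested genes were in both clones, and Igfbp7 was lower, as 21.4% were. Among the members below the filter, Irs1 and Irs2 were lower and Igfbp4 was higher without overlap. Of the 41 other pathway genes with counts below the filter, 4 were lower and 11 higher without overlap. The shares of 21.6% and 21.4% cover tested genes only. No share was computed over all genes below the filter, so that the values of Irs1, Irs2, Igfbp4 and these 41 genes stand without a background.

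The other genes of the pathway were taken from lists written from general knowledge. They hold 76 genes besides the members, of which 72 were listed in the counts, 60 had counts and 19 were tested. Of these 19, 1 was called higher and 0 lower after adjustment by edgeR, beside 1.11% and 2.50% of all tested genes. With the unadjusted p, 3 were higher and 1 lower, beside 4.63% and 6.97%. DESeq2 called 0 in either direction after adjustment. The median log2 fold change of the 19 pathway genes was -0.04, beside -0.01 over all tested genes.

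Htra1, a secreted serine protease that cleaves IGF-binding proteins among other substrates, was the 1 called after adjustment. Control counts were 12 and 24 and clone counts 50 and 49. It rose from 212 ± 28.9 to 568 ± 18.3 CPM (SD, n = 2 each), or by 1.39 on the log2 scale (SE 0.34, edgeR adjusted p = 0.0306). The call was lost on leaving out whichever library, and the adjusted p was 0.0226 to 0.497 over all settings. Of the 8 genes of its list that are no members and were listed in the counts, 5 were at 0 throughout, among them Igfbp1, Igfbp6 and the protease gene Pappa.

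Of the 14 other adaptor genes, 4 were tested and none was called after adjustment. Shc1, which couples receptors to the Ras pathway, had a count of 9 in each control and clone counts of 24 and 38. The difference was 1.66 on the log2 scale (SE 0.46, edgeR unadjusted p = 0.00214, adjusted p = 0.0549). The adjusted p passed the threshold with library totals (0.0415), without the filter (0.0467), without control 1 (0.0199) and without clone A (0.0411), and was 0.539 without control 2 and 0.530 without clone B. Ptpn11, a phosphatase that binds such adaptors, had control counts of 8 and 36 and clone counts of 18 and 13. Its difference of -0.50 on the log2 scale (SE 0.48) turned to 0.44 without control 2.

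In the PI3K, Akt and mTOR list, 8 of 30 genes were tested, with log2 fold changes below 0 for 6 and above 0 for 2 and a median of -0.49. Mtor, the kinase that sets protein synthesis, had a count of 14 in each control and clone counts of 6 and 3, a difference of -1.74 on the log2 scale (SE 0.70, edgeR unadjusted p = 0.0238, adjusted p = 0.224). Gsk3a, a kinase that Akt inhibits, had counts of 20 and 46 against 27 and 21, a difference of -0.50 on the log2 scale (SE 0.37). Eif4ebp1, a translation repressor that mTOR inactivates, had counts of 11 and 18 against 26 and 24, a difference of 0.70 on the log2 scale (SE 0.41). Neither Gsk3a nor Eif4ebp1 passed the unadjusted threshold.

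Genes that FoxO factors activate, which Akt holds back, had 5 of 15 tested members, 3 above 0 and 2 below, with a median log2 fold change of 0.52. Gadd45a, a stress-response gene, had control counts of 5 and 10 and clone counts of 25 and 26. The difference was 1.68 on the log2 scale (SE 0.47, edgeR unadjusted p = 0.00221, adjusted p = 0.0554). Cat, the gene for catalase, had counts of 10 and 12 against 18 and 16, a difference of 0.52 on the log2 scale (SE 0.50). None of the 5 passed the adjusted threshold.

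**Figure D4:**
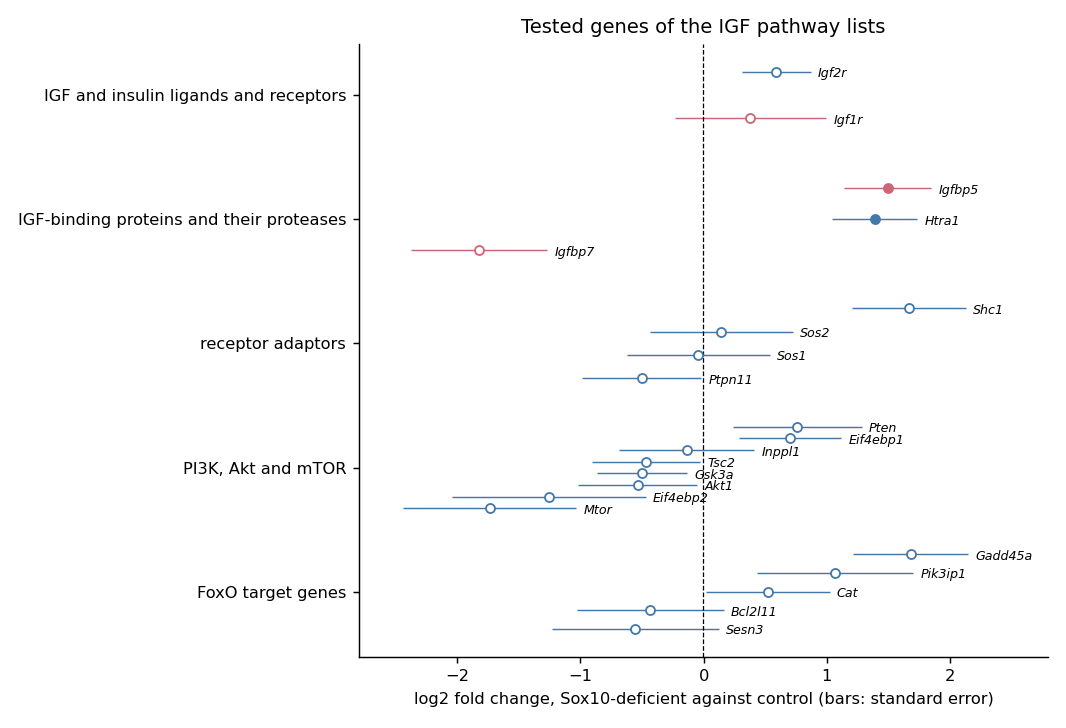
Log2 fold change of Sox10-deficient clones against controls for each tested gene of the pathway lists, with standard errors as bars. Red marks members and blue other genes, filled points passed the adjusted call of edgeR, and the dashed line is the median of all tested genes. Igfbp5 and Htra1 are filled, and Igfbp7 and Mtor lie farthest to the left.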

How the data were processed

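RNA from 2 control and 2 Sox10-deficient OLN93 cultures was sequenced as stranded mRNA libraries. The authors mapped reads to rat genome rn5 with STAR 2.5.1 and deposited HTSeq counts per gene symbol for each library, without normalization. Their table of the comparison holds a mean read count, rounded and treated here as a score that the authors deposited, and their fold changes and p-values, which were not used. The methods name Ensembl gene identifiers for the counting, whereas the deposited counts are per symbol, and the strand option is not given in the sources used here.

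The quasi-likelihood test of edgeR 4.0.16 under R 4.3.3 was run on counts kept by filterByExpr and scaled by TMM, with condition as the sole term over 2438 genes, and adjusted by the Benjamini-Hochberg method. Standard errors come from the F statistic. DESeq2 1.42.0 served as an alternative. Intervals, at the 95% level, come from scipy 1.17.1 (Python 3.11.15). The edgeR code was run on simulated counts with planted changes. This checked the code only, because the simulation did not hold the gene-specific spread of these cultures. Named genes are the members, Sox10, pathway genes called by either rule, and per list the 2 tested genes with the highest level. Polr2b, Rps6, Ins1, Ins2, Igfbp1, Igfbp6, Pappa and the markers named as at 0 were named after their values were seen. The members and lists were chosen with earlier results of these data known.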

Additional observations from a re-analysis of the deposited data

How the results depend on the processing

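Results were recomputed with DESeq2, other size factors, other filters, a replicate block and without each library in turn. Igf1r was called in none of its fits, and Igf1r, Igfbp5 and Igfbp7 kept their direction in every fit that tested them. The log2 fold change of Igfbp5 was 1.50 with DESeq2 and 1.51 with the replicate block (adjusted p = 0.0773), where the call was lost, and 1.31 to 1.67 with a library left out. That of Igfbp7 passed the threshold at -1.84 with library totals and at -1.80 without the filter, and was -3.34 to -1.10 with a library left out. With at least 10 counts in every library Igf1r and Igfbp7 were not tested. The number of members called lower was 1 with library totals and without the filter and 0 to 1 with a library left out. The number called higher was 0 with DESeq2 and with the block, and 0 to 1 with a library left out. By the unadjusted p, 3 of 7 tested members were lower without the filter, where 329 of all 10024 tested genes were. With the minimum of 10 counts 0 of 1 tested members were lower, where 42 of all 1122 tested genes were. Pathway genes called higher numbered 0 of 19 with DESeq2 and with the block, and 0 of 8 with the minimum. With library totals they numbered 3 of 19, where 36 of all 2438 tested genes were called higher. Without the filter they numbered 2 of 60, where 44 of all 10024 tested genes were. Ptpn11 reversed to 0.44 without control 2 and was -0.99 without control 1. The causes were not tested.

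Over all genes, 61 were called lower and 27 higher. Of the same 2438 tested genes, DESeq2 gave 28 and 8, the block 28 and 11, and library totals 74 and 36. The minimum gave 8 and 9 of 1122 tested genes, and no filter 70 and 44 of 10024. Without control 2 none were called by edgeR after adjustment, and 138 and 137 by the unadjusted p. Without control 1 there were 70 and 39, without clone A 39 and 16, and without clone B 44 and 15. By the unadjusted p, no filter gave 329 and 295, the minimum 42 and 31, and DESeq2 103 and 68, against 170 and 113. The scalings moved the median log2 fold change to between -0.03 and 0.00. The sample descriptions number the libraries of both groups 1 and 2, but nothing ties equal numbers together. The deviations of 1-numbered libraries had a correlation of 0.12 across 2438 genes, so that the libraries were not treated as paired. The depth of the deposited counts left Igf1, Irs1, Irs2 and Igfbp4 with counts but no test.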

Other observations

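Of the pathway genes below the filter, 41 had counts. An interval of the pooled ratio of clones to controls was computed unless a group had 0 counts or both sums were at most 3. It lay below 1 for 3 genes and above 1 for 2. These 5 are named after their values were seen, and no share over all genes below the filter was computed. Grb14, an adaptor that inhibits insulin receptor signalling, had control counts of 6 and 8 and clone counts of 0 and 2, a pooled ratio of 0.136 (exact binomial interval 0.0150 to 0.591). Ptpn1, a phosphatase that acts on the insulin and IGF receptors, had control counts of 9 and 6 and clone counts of 2 and 0, a pooled ratio of 0.127 (0.0141 to 0.545). Igf2bp2, an RNA-binding protein named for its binding of Igf2 mRNA, had control counts of 2 and 3 and a count of 9 in each clone, a pooled ratio of 3.42 (1.22 to 11.8), whereas Igf2 itself had no counts. Gsk3b, a kinase that Akt inhibits, had control counts of 1 and 3 and clone counts of 10 and 6, a pooled ratio of 3.8 (1.23 to 15.6). Pik3r2, a regulatory subunit of PI3-kinase, had control counts of 1 and 16 and clone counts of 5 and 1, a pooled ratio of 0.335 (0.108 to 0.892), and its groups overlapped. The intervals cover counting error only and leave out the spread between cultures.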
